A study of Mus musculus with 6 samples.

Results

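The genes described here are 38 genes of the actin cytoskeleton and of its transcriptional program: the actins, the proteins that cross-link, coat, pull on and recycle actin filaments, the LIM-domain proteins that sit on them, and the transcription factor SRF with several of its known targets. They were chosen by name, with earlier results of these data known, as were the 3 further lists below. The shares of called genes in them, set against all genes, are therefore not independent of these data. All 38 were found among the 35275 Ensembl identifiers of the deposited expression table. RNA was sequenced from ID8-KMF cells, a C57Bl6/J mouse ovarian cancer line that was derived by passaging ID8 cells in vivo. GFP-Rgnef cells were ID8-KMF cells of genotype Rgnef-/- that carried lentiviral GFP-Rgnef (3 libraries). Knockout cells were Rgnef-/- ID8-KMF cells with no construct named (3 libraries). All 6 libraries therefore share the Rgnef-/- genotype, and what lentivirus, GFP tag and Rgnef each contributed cannot be told apart. Cells of both groups were subconfluent and grew in 2D on dishes with 0.2% Matrigel. The labels do not state whether replicates were grown as separate cultures or clones. The spread behind each p-value is that among libraries of the same group, pooled over both groups and moderated toward that of other genes. It may be technical.

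Rgnef, also called p190RhoGEF, is a guanine nucleotide exchange factor that loads the small GTPase RhoA with GTP. Active RhoA drives actin filament assembly through formins and contractility through myosin II. Monomeric actin holds the coactivators MRTF-A and MRTF-B in the cytoplasm, and when monomers are used up in filaments the coactivators enter the nucleus and join the transcription factor SRF. SRF binds the CArG box, and its targets include actins, calponins, tropomyosins and focal adhesion genes, so that filament assembly feeds back on the supply of its own parts. The comparison asks which of these transcripts differed with GFP-Rgnef.

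Levels are FPKM, fragments per kilobase of transcript scaled to depth. The values implied 15898965 to 17977069 counted reads per library. Arhgef28, the gene of Rgnef (ENSMUSG00000021662, chromosome 13, 97899469 to 98206439, minus strand, GRCm38), had 57.2, 50.9 and 50.02 FPKM in the GFP-Rgnef libraries, against 0.116, 0.110 and 0.134 FPKM in the knockout libraries, so every library matched its label. Markers of the line's surface epithelial origin were present, with Krt8 at 188 to 233 FPKM and Wt1 at 180 to 211 FPKM across the 6 libraries, although Krt7, Epcam and Lrrn4 were below 1 FPKM in each (2 of 6 epithelial and 1 of 5 mesothelial markers). Some differed with the group: Krt18 had 285.9 to 341.8 FPKM with GFP-Rgnef, against 213.8 to 230.4 FPKM in the knockout. Upk3b had 119.5, 114.7 and 42.6 FPKM with GFP-Rgnef, against 319.1, 317.8 and 116.3 FPKM in the knockout, and the part of such differences in the results was not tested. Skeletal muscle markers were below 1 FPKM throughout (5 of 5), as were 5 of 7 smooth muscle, 5 of 6 immune and 3 of 4 endothelial markers. The exceptions were Smtn of smooth muscle, at 31.9 to 45.3 FPKM, and Tagln of smooth muscle, at 0.357 to 1.2 FPKM. The others were Tek, at 85.7 to 145.8 FPKM, and Cd68, at 2.17 to 3.81 FPKM. In bulk RNA, fewer cells of a type and less RNA per cell cannot be told apart.

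Differences are GFP-Rgnef minus knockout on the log2(FPKM + 1) scale. On this scale the change of a low gene is understated. Genes with a mean of at least 0.5 FPKM were tested with limma, and a gene was called at an adjusted p below 0.05 over all 11500 genes tested. Of the 38 actin and SRF/MRTF genes, 30 passed the filter and 8 did not. The 30 tested genes had a mean of at least 0.5 FPKM in each group, so none entered through 1 group alone. Among these 30, 6 fell (20%), against 8.04% of all genes tested. None was called higher by limma, against 5.34% of all genes, with 1 higher at an unadjusted p below 0.05 (Tpm3), and limma's voom on recovered reads also called 0 higher. Voom called 7 lower, 4 of them outside chromosomes 7 and 9, namely the 6 genes that follow and Filip1l. The 6 called on log2(FPKM + 1) were Fhl1, Tpm1, Actn4, Cnn2, Myh10 and Myo1e. Without the GFP-Rgnef library numbered 2, 3 remained called (Fhl1, Tpm1 and Actn4), while 458 of all genes were called lower in place of 925. The median difference of the 30 was -0.11, against 0.02 over all genes tested. Of the 30 differences 25 were negative, 21 of 26 outside chromosomes 7 and 9 and 4 of 4 on them. Over all genes tested, 46.1% of differences lay below -0.0037 and 48.1% below 0.0062. In 8 of the 30 genes all GFP-Rgnef libraries lay below all knockout libraries (16.7% of all genes tested), and in 1 of the 30 they lay above (16.7% of all genes).

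Chromosomes 7 and 9 were set apart, because transcripts of these chromosomes as a whole were lower in GFP-Rgnef libraries. On chromosome 7, 28.8% of the 819 tested genes fell, and on chromosome 9, 36.6% of 639. The median differences of all genes there were -0.24 and -0.28. Of the 6 actin and SRF/MRTF genes on these chromosomes, 4 were tested, and 3 of them fell (Actn4 on chromosome 7, Tpm1 and Myo1e on chromosome 9), against 32.2% of all genes there. The fall of these 3 genes and that of their chromosomes cannot be told apart by position alone. Outside chromosomes 7 and 9, 26 of 32 genes were tested, and 3 fell (11.5%), against 4.53% of the 10042 genes tested there. None of the 26 was called higher by limma or by voom, against 5.96% of all genes there, and 1 was higher at an unadjusted p below 0.05. The median difference of the 26 was -0.08, against 0.04 for all genes outside these chromosomes. The 3 genes that fell there were Cnn2, Fhl1 and Myh10. The libraries of the groups were apart without overlap in 5 of the 26 genes in the lower direction (10.7% of all genes there) and in 1 in the higher direction (18.8%). On chromosomes 7 and 9 this held for 3 of the 4 tested genes in the lower direction, against 58% of all genes there.

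**Figure D1:**
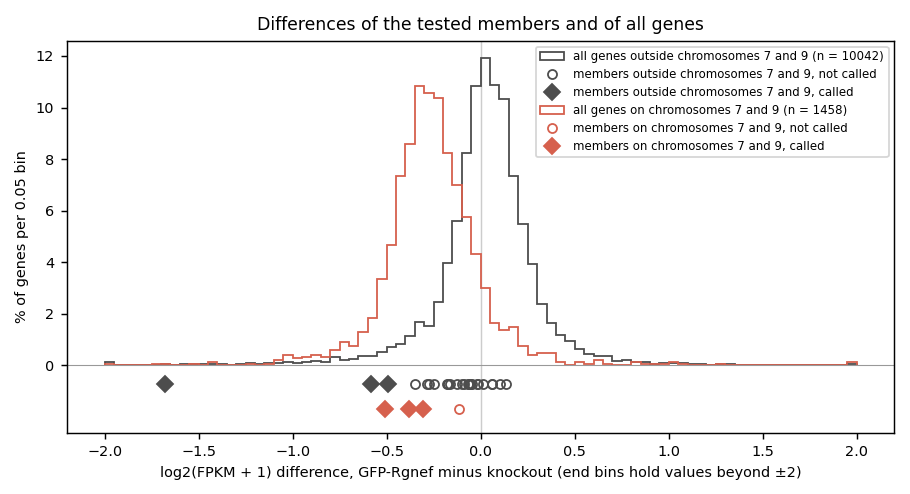
Differences between GFP-Rgnef and knockout libraries on the log2(FPKM + 1) scale (x axis). Lines give the share of all genes per bin (y axis, %) outside chromosomes 7 and 9 (n = 10042) and on them (n = 1458), and values beyond the axis are counted in the end bins. Symbols below the curves are the tested actin and SRF/MRTF genes, with filled diamonds for the 6 called. The curve of chromosomes 7 and 9 lies to the left of the other, and the 3 called genes on them lie inside it, while Fhl1 at -1.68 stands far to the left.

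The SRF site was looked for in the promoters of these genes, since it is the sequence by which many of them are known to be controlled. RefSeq promoters (GRCm38.p6, 250 bases before to 50 bases after an annotated start) were held for 34 of the 38 genes, and were searched for the CArG box, which reads the same class of letters on both strands. It was present in at least 1 promoter of 11 of the 34 genes (32.4%), against 488 of 27025 genes (1.81%) of the whole promoter table. The genes were chosen in part as SRF targets, so this share is no independent result. The 5 promoters below are shown because they belong to the 3 genes with a box that fell (Fhl1, Cnn2 and Myo1e), to the most abundant actin with an entry (Actg1) and to Srf itself. They are written 5′ to 3′ on the strand of the gene, with the box in capitals. They lie at chrX:56779433-56779732 (plus strand), chr10:79988350-79988649 (plus), chr9:70207100-70207399 (plus), chr11:120348446-120348745 (minus) and chr17:46556113-46556412 (minus).
Fhl1: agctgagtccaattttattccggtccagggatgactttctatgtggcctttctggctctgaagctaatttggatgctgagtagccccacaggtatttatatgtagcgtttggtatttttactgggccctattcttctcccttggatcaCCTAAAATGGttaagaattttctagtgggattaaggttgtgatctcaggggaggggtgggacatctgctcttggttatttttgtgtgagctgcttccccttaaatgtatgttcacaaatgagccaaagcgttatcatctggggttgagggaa
Cnn2: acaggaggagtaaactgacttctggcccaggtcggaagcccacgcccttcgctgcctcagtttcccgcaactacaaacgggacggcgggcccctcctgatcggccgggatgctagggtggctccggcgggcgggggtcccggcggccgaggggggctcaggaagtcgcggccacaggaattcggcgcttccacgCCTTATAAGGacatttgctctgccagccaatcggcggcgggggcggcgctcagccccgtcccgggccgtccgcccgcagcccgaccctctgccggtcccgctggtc
Myo1e: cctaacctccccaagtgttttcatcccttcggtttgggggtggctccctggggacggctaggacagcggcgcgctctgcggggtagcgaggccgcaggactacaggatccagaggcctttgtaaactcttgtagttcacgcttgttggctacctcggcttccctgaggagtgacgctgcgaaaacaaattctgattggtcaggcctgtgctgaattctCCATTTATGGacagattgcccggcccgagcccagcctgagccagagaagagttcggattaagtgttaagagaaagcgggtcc
Actg1: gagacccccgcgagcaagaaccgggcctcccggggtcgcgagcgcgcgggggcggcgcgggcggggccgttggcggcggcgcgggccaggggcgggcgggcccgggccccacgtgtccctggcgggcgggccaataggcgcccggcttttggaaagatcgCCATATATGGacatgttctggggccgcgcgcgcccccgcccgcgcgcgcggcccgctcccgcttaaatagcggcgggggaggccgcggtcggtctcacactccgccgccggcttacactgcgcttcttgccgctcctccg
Srf: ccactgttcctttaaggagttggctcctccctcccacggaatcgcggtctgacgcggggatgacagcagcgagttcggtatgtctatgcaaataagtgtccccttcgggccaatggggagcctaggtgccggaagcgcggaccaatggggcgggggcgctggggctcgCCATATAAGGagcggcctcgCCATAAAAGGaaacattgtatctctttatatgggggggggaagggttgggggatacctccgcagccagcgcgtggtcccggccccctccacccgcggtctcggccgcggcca
In Cnn2 the box began 56 bases before the start and read CCTTATAAGG. The same letters were in the promoter of Lima1 and in 1 of the 2 promoters held for Filip1l. The box of Fhl1 was CCTAAAATGG, in 1 of the 2 promoters held for this gene, and that of Myo1e was CCATTTATGG. Srf held a pair of boxes, CCATATAAGG and CCATAAAAGG.

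Of the 9 tested genes with a box, 3 fell, and of the 19 tested genes with a promoter entry and no box, 3 fell. Over all genes tested, with or without a box, 8.04% fell. The median differences were -0.27 with a box and -0.06 without. Outside chromosomes 7 and 9 the counts were 2 of 8 with a box and 1 of 17 without, with medians of -0.22 and -0.06, against 4.53% of all genes there. These are counts in small groups, and their difference was not tested. A box in the promoter did not go with a fall in every gene, as Actg1, Lima1, Fhl2, Filip1l, Myl6 and Srf held one and were not called. The absence of the box from a window says only that these letters are not in it.

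The actins form the filament itself. Actb (ENSMUSG00000029580, chromosome 5, 142903115 to 142906754), cytoplasmic beta-actin and the most abundant of the 38 genes, had 4994, 4755 and 4625 FPKM in GFP-Rgnef libraries, against 5118, 5210 and 5757 FPKM in knockout libraries. All 3 GFP-Rgnef libraries lay below the 3 knockout libraries, as they did for 16.7% of all genes tested. The difference of -0.16 (SE 0.069) did not pass the test (limma adjusted p = 0.172). Actg1, cytoplasmic gamma-actin, had 2270, 2124 and 1963 FPKM in GFP-Rgnef libraries, against 1919, 2063 and 2333 FPKM in knockout libraries. Its groups overlapped, with a difference of 0.01 (95% interval -0.19 to 0.21, adjusted p = 0.953). The beta to gamma ratio within a library was 2.20, 2.24 and 2.36 with GFP-Rgnef, against 2.67, 2.53 and 2.47 in the knockout, a description made after the values were seen. The coding regions of the actins are close copies of each other, and how reads shared between them or with actin pseudogenes were counted is not given in the sources used here.

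The 3 muscle actins were near or at 0. Acta2, the smooth muscle alpha-actin that marks myofibroblasts, had 0, 0 and 0.488 FPKM in GFP-Rgnef libraries, against 0.0312, 0.0323 and 0.436 FPKM in knockout libraries. Its few reads (0, 0 and 15 with GFP-Rgnef, against 1, 1 and 13 in the knockout) lay almost all in the library numbered 3 of each group. Acta1, skeletal muscle alpha-actin, had 0.0404 to 0.123 FPKM with GFP-Rgnef and 0 to 0.116 FPKM in the knockout. Actg2, the smooth muscle gamma-actin, was listed at 0 in all 6 libraries.

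Among the filament cross-linkers, Actn4 fell. This gene encodes the non-muscle alpha-actinin 4, which ties filaments into bundles (ENSMUSG00000054808, chromosome 7, 28893248 to 28962340, minus strand). It had 524.2, 508.8 and 479.0 FPKM in GFP-Rgnef libraries, against 707.1, 626.0 and 640.5 FPKM in knockout libraries, with no overlap. The difference was -0.38 (SE 0.069, limma adjusted p = 0.0102). Chromosome medians were also subtracted. In each library this took away the median deviation of a chromosome's genes from their means over the libraries, before a new fit. The difference of Actn4 was then -0.13 (limma adjusted p = 0.268). Before that step, 24.3% of chromosome 7 genes had a lower difference than Actn4. Actn1, the other non-muscle alpha-actinin, had 104.6 to 137.3 FPKM with GFP-Rgnef, against 123.9 to 154.9 FPKM in the knockout (difference -0.25, adjusted p = 0.206). Flna, filamin A, which joins filaments into orthogonal nets, had 491.7 to 623.0 FPKM with GFP-Rgnef, against 459.6 to 615.0 FPKM in the knockout (0.10, 95% interval -0.18 to 0.38, adjusted p = 0.649). Filip1l, a filamin A interacting protein 1-like gene, had 37.3, 32.7 and 37.1 FPKM in GFP-Rgnef libraries, against 41.4, 45.4 and 43.3 FPKM in knockout libraries. These did not overlap, and the difference of -0.27 (SE 0.077) missed the threshold (limma adjusted p = 0.0513). It was called under TPM scaling (adjusted p = 0.0366), by voom (adjusted p = 0.0434) and after subtraction of the chromosome median (adjusted p = 0.031). Without any 1 library it was not called (adjusted p = 0.0576 to 0.192).

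Calponins and transgelins bind along filaments, and Cnn2 fell among them. Cnn2, a calponin found in non-muscle cells (ENSMUSG00000004665, chromosome 10, 79988584 to 79996062, plus strand), had 77.8, 69.0 and 61.6 FPKM in GFP-Rgnef libraries, against 94.8, 91.6 and 107.6 FPKM in knockout libraries. The highest GFP-Rgnef library lay below the lowest knockout library. Mean levels were 69.5 ± 8.14 with GFP-Rgnef and 98.0 ± 8.46 in the knockout (SD, n = 3 each), and the difference was -0.49 (SE 0.10, limma adjusted p = 0.0162). Its value after subtraction of the chromosome median was -0.51 (adjusted p = 0.02). Without the GFP-Rgnef library numbered 2 the call was lost (adjusted p = 0.0614). Cnn3, acidic calponin, had 184.1, 176.5 and 156.9 FPKM with GFP-Rgnef, against 194.9, 206.1 and 183.8 FPKM in the knockout, a difference of -0.18 that was not called (adjusted p = 0.183).

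Tagln2, the broadly expressed transgelin and the most abundant gene of this class, had 467.3, 464.4 and 393.0 FPKM with GFP-Rgnef, against 468.8, 463.3 and 454.2 FPKM in the knockout. The difference was -0.07 (95% interval -0.25 to 0.11, limma adjusted p = 0.621). Tagln, known as SM22-alpha and a classical SRF target of smooth muscle, was low, at 0.371, 0.357 and 1.2 FPKM with GFP-Rgnef and 0.772, 0.616 and 0.828 FPKM in the knockout. Of its 1988 exon bases, 108 overlap exons of Pcsk7 on the opposite strand, and Pcsk7 had a mean of 9.61 FPKM. Without strand, reads within these 108 bases cannot be told apart. Cnn1, smooth muscle calponin, had 0 to 4 reads per library in GFP-Rgnef and 1 to 4 in the knockout.

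Tropomyosins coil along the filament and set which proteins may bind it. Tpm1 fell (ENSMUSG00000032366, chromosome 9, 67022590 to 67049406, minus strand). Its levels were 435.1, 416.2 and 418.5 FPKM in GFP-Rgnef libraries, against 581.4, 618.4 and 606.1 FPKM in knockout libraries. The groups were far apart for their spread, with means of 423.3 ± 10.3 for GFP-Rgnef and 602.0 ± 18.8 for the knockout (SD, n = 3 each). The difference was -0.51 (SE 0.056, limma adjusted p = 0.00174). After subtraction of the chromosome median it was -0.22 and not called (adjusted p = 0.0662), and 12.2% of chromosome 9 genes had a lower difference.

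Tpm3, the most abundant tropomyosin over the 6 libraries, ran the other way, with 642.3, 638.4 and 621.2 FPKM in GFP-Rgnef libraries, against 555.6, 587.2 and 588.4 FPKM in knockout libraries. No library of one group reached the other, and the difference of 0.14 (SE 0.056) was not called (limma adjusted p = 0.152). Tpm4 had 319.3 to 321.4 FPKM with GFP-Rgnef, against 307.0 to 354.8 FPKM in the knockout (-0.06, adjusted p = 0.608). Summed over Tpm1, Tpm2, Tpm3 and Tpm4, tropomyosin had 1399, 1374 and 1361 FPKM with GFP-Rgnef, against 1444, 1560 and 1540 FPKM in the knockout. Tpm1 made up 31.1%, 30.3% and 30.8% of that sum in GFP-Rgnef libraries, against 40.3%, 39.6% and 39.4% in knockout libraries. The share of Tpm3 was 45.9%, 46.5% and 45.6% with GFP-Rgnef, against 38.5%, 37.6% and 38.2% in the knockout. Tpm3 was thus the leading tropomyosin in the GFP-Rgnef libraries and Tpm1 in the knockout libraries. These sums were set up after the values were seen and were not tested, they rest on the lengths used by the authors, and Tpm3 has processed pseudogenes that can share its reads.

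**Figure D2:**
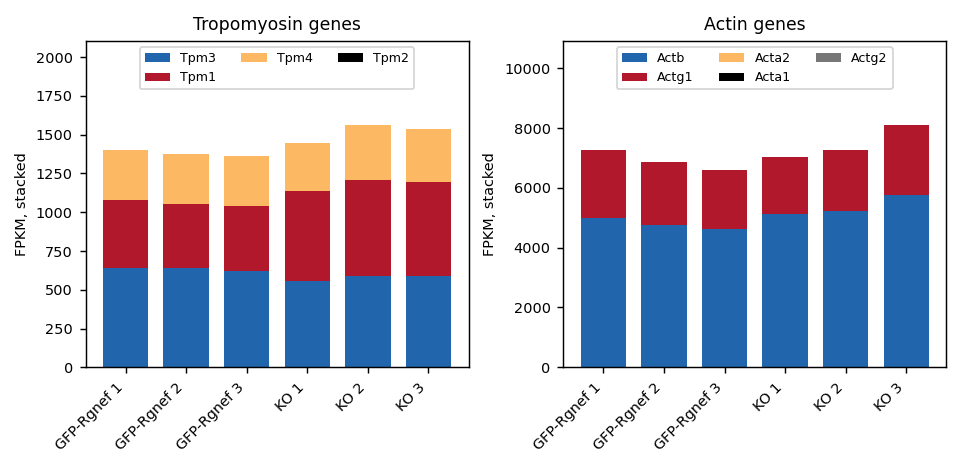
Stacked FPKM (y axes) of the actins and tropomyosins in each of the 6 libraries (x axes). The tropomyosin stack shows the share of Tpm1 at 30.3% to 31.1% in the GFP-Rgnef libraries and at 39.4% to 40.3% in the knockout libraries, while the summed level differs less.

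Cald1, caldesmon, which restrains myosin on the filament, had 394.5, 388.7 and 509.8 FPKM with GFP-Rgnef, against 394.6, 405.1 and 549.0 FPKM in the knockout. In both groups the library numbered 3 was highest, and the group difference was -0.06 (95% interval -0.39 to 0.28, limma adjusted p = 0.857). Tpm2, a tropomyosin of muscle and fibroblasts, had 2, 5 and 5 reads with GFP-Rgnef, against 2, 1 and 5 in the knockout. Lmod1, the smooth muscle leiomodin, a filament nucleator, had 3, 0 and 0 reads with GFP-Rgnef, against 2, 1 and 0 in the knockout.

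Among the myosin chains, Myh10 and Myo1e fell. Myh10, the heavy chain of non-muscle myosin IIB (ENSMUSG00000020900, chromosome 11, 68691559 to 68816632, plus strand), was a low gene, with 0.420, 0.592 and 0.545 FPKM in GFP-Rgnef libraries, against 1.10, 1.10 and 1.65 FPKM in knockout libraries. The values correspond to 22, 29 and 29 reads in GFP-Rgnef libraries, against 61, 59 and 85 reads in knockout libraries. Mean FPKM was 2.47-fold lower with GFP-Rgnef, and the difference on the log2(FPKM + 1) scale was -0.58 (SE 0.14, limma adjusted p = 0.0309). The call was lost without any 1 of the 6 libraries (adjusted p = 0.0584 to 0.101), and the difference stayed negative in each. Myh9, the heavy chain of non-muscle myosin IIA and the main one here, had 564.0, 536.9 and 429.0 FPKM with GFP-Rgnef, against 653.5, 522.2 and 458.1 FPKM in the knockout. These overlapped (-0.09, 95% interval -0.42 to 0.24, adjusted p = 0.747).

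Myo1e, a class I myosin that links membranes to actin (ENSMUSG00000032220, chromosome 9, 70207350 to 70399766, plus strand), had 15.7 FPKM in each of the 3 GFP-Rgnef libraries, against 21.6, 19.2 and 18.4 FPKM in knockout libraries. The difference was -0.31 (SE 0.080, limma adjusted p = 0.0403). It lay in the middle of its chromosome, with 43.5% of chromosome 9 genes lower still, and was -0.02 once the chromosome median was subtracted (adjusted p = 0.935). The call was kept without the knockout library numbered 3 (adjusted p = 0.0381) and lost without any other library, up to an adjusted p of 0.13, and without the filter on low genes (adjusted p = 0.0642). Of the light chains, Myl6 had 454.6, 435.5 and 382.9 FPKM with GFP-Rgnef, against 550.2, 594.3 and 419.3 FPKM in the knockout (-0.28, adjusted p = 0.192). The low knockout library was the one numbered 3, and without it Myl6 differed by -0.43 (adjusted p = 0.0205). Myl12a, a regulatory light chain with the near-identical neighbour Myl12b, had 446.3 to 508.4 FPKM with GFP-Rgnef, against 483.2 to 519.0 FPKM in the knockout (-0.06, adjusted p = 0.640). Myl9, the regulatory light chain of smooth muscle, had 0, 0 and 1 reads with GFP-Rgnef, against 1, 0 and 3 in the knockout.

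The LIM-domain proteins couple filaments to adhesions and to transcription, and Fhl1 fell among them by more than any other of the 30 tested genes. Fhl1 encodes a protein built of LIM domains, best known from striated muscle (ENSMUSG00000023092, chromosome X, 56731787 to 56793346, plus strand). It had 1.62, 1.99 and 2.23 FPKM in GFP-Rgnef libraries, against 8.75, 8.09 and 8.37 FPKM in knockout libraries, from 40, 46 and 56 reads against 229, 205 and 204 reads. Every knockout library was far above every GFP-Rgnef library. Mean levels were 1.94 ± 0.308 with GFP-Rgnef and 8.41 ± 0.332 in the knockout (SD, n = 3 each), a 4.32-fold lower level. The difference was -1.68 (SE 0.11, limma adjusted p = 0.000137), and it was called without any 1 library. On chromosome X, where 14.1% of 369 tested genes fell, 0.271% had a lower difference than Fhl1, and subtraction of the chromosome median left -1.62 (adjusted p = 0.00011).

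**Figure D3:**
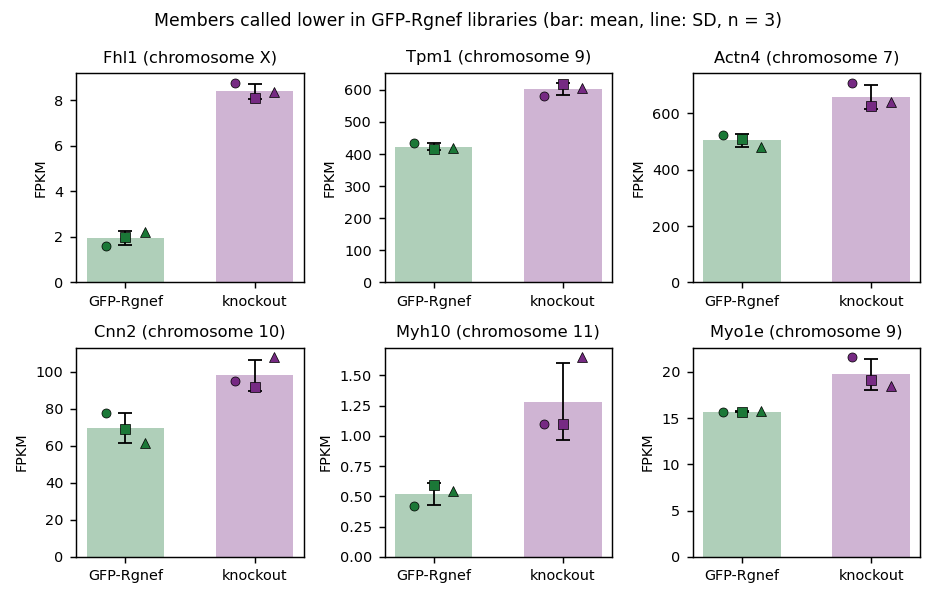
FPKM (y axes, starting at 0) of the 6 called genes in the 3 GFP-Rgnef libraries (left) and the 3 knockout libraries (right of each panel), with a point per library and bars for the mean and SD. The groups are separate in every panel, and the ratio of the means, knockout over GFP-Rgnef, is largest for Fhl1 (4.32), at 1.62 to 2.23 against 8.09 to 8.75 FPKM.

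The other LIM-domain genes were not called. The relatives of Fhl1 lay close in both groups. Fhl2 had 3.45, 4.14 and 4.49 FPKM with GFP-Rgnef, against 3.46, 4.14 and 6.09 FPKM in the knockout (-0.12, limma adjusted p = 0.704), and Fhl3 had 16.7 to 17.3 FPKM with GFP-Rgnef, against 15.5 to 22.9 FPKM in the knockout (-0.10, adjusted p = 0.699). Lima1, known as EPLIN, a filament stabiliser of epithelial cells and the most abundant gene of this class, had 47.9, 54.5 and 58.6 FPKM with GFP-Rgnef, against 52.1, 46.5 and 55.9 FPKM in the knockout (0.06, 95% interval -0.17 to 0.28, adjusted p = 0.758). The PDZ and LIM adaptors of stress fibres gave differences of -0.35 for Pdlim1, 0.06 for Pdlim5 and -0.02 for Pdlim7 (adjusted p = 0.238, 0.627 and 0.925). Tgfb1i1, the focal adhesion adaptor Hic-5, had 0, 2 and 2 reads with GFP-Rgnef, against 1, 3 and 0 in the knockout.

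None of the 3 filament turnover genes was called by limma, and none had an unadjusted p below 0.05. Coro1c, a coronin and the most abundant of these, had 278.5, 264.3 and 222.6 FPKM with GFP-Rgnef, against 269.4, 263.7 and 241.4 FPKM in the knockout (-0.02, 95% interval -0.23 to 0.19, adjusted p = 0.913). Wdr1, which helps cofilin take filaments apart, differed by -0.05 (adjusted p = 0.655), and Cap1, which recycles actin monomers, by -0.04 (adjusted p = 0.720). Srf itself (chromosome 17, 46548329 to 46556175) had 21.1, 21.4 and 18.7 FPKM in GFP-Rgnef libraries, against 23.7, 20.9 and 25.0 FPKM in knockout libraries. A single knockout library reached the GFP-Rgnef range, and the difference of -0.17 (SE 0.091, 95% interval -0.38 to 0.03) was not called (limma adjusted p = 0.252).

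Over the 24 tested genes that were not called, differences ran between -0.35 and 0.14, with 95% intervals reaching -0.76 at the low end and 0.38 at the high end. For the least precise of them a fall as large as those of Cnn2 or Tpm1 lies within the interval. The 8 genes under the filter (Acta1, Acta2, Actg2, Cnn1, Tpm2, Lmod1, Myl9 and Tgfb1i1) never exceeded 0.488 FPKM and are mostly genes known from smooth or skeletal muscle. No difference can be read from so few reads.

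**Figure D4:**
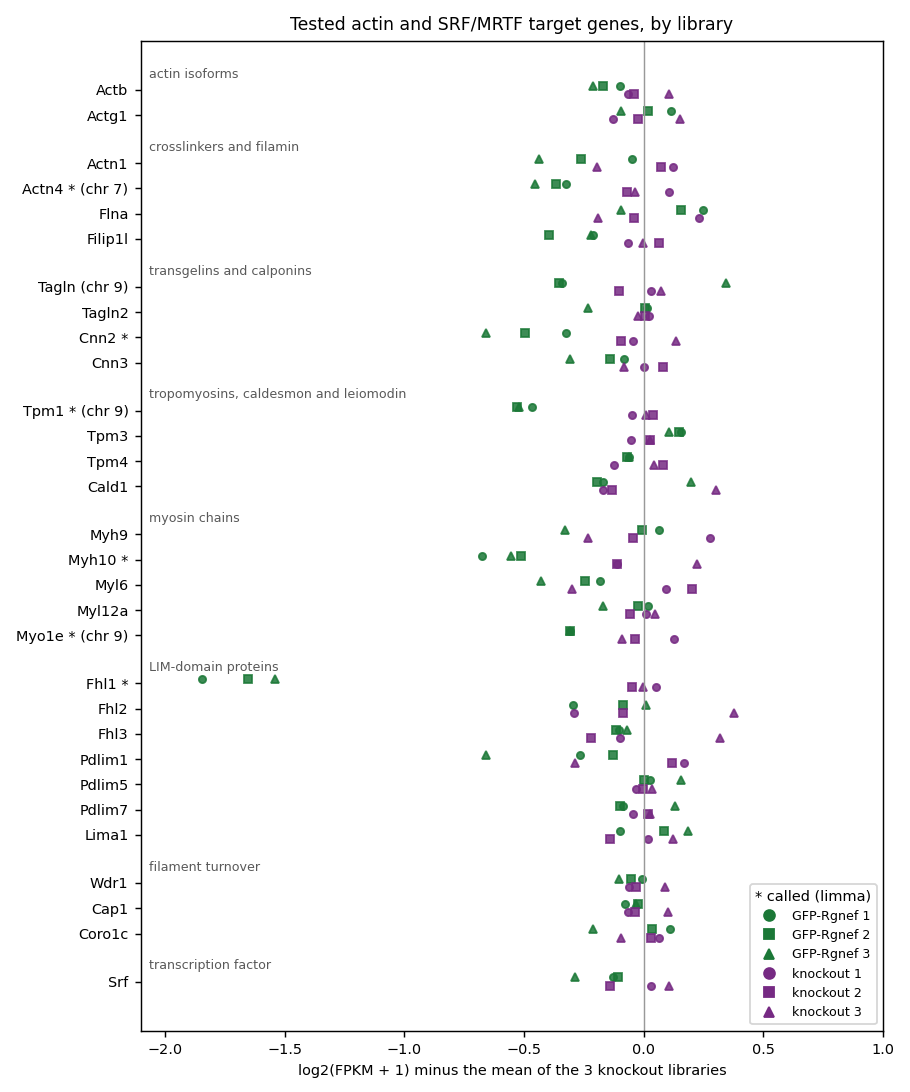
Each tested actin and SRF/MRTF gene (rows, by role) in each library, as log2(FPKM + 1) minus the mean of the 3 knockout libraries (x axis). Green symbols are GFP-Rgnef libraries and purple symbols knockout libraries, with the symbol's shape giving the replicate number. Asterisks mark the 6 called genes, whose green symbols all lie left of the purple ones, and for genes such as Cald1, Myh9 and Tagln2 the triangles of both groups stand to the same side.

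A further list holds GTPases, formins, kinases and coactivators of the signalling upstream of SRF. Of its 25 genes, 24 were tested, 2 fell and 1 rose (12.5% called, against 13.4% of all genes in either direction), with a median difference of -0.02. Rhoa, the GTPase that Rgnef activates (chromosome 9, 108306129 to 108337934), had 153.3, 156.7 and 161.6 FPKM in GFP-Rgnef libraries, against 198.9, 223.9 and 214.4 FPKM in knockout libraries. All GFP-Rgnef libraries were lower (-0.43, SE 0.065, limma adjusted p = 0.00529). Like Tpm1 it lies on chromosome 9, where 21.1% of genes had a lower difference, and it differed by -0.14 after subtraction of the chromosome median (adjusted p = 0.25). Diaph2, a formin on chromosome X, had 5.74, 5.85 and 5.97 FPKM with GFP-Rgnef, against 7.78, 8.03 and 7.06 FPKM in the knockout (-0.33, adjusted p = 0.0411), and -0.26 after that subtraction (adjusted p = 0.133). Pfn1, profilin, which feeds monomers to formins and binds the same pool of actin monomers as MRTF, rose. It had 1138, 1098 and 1103 FPKM in GFP-Rgnef libraries, against 922.8, 959.9 and 967.1 FPKM in knockout libraries (0.23, SE 0.055, adjusted p = 0.0301), and 0.16 after subtraction of the median of its chromosome, 11 (adjusted p = 0.157). Diaph2 was not called without any 1 library other than the knockout library numbered 3 (adjusted p = 0.0622 to 0.142). Pfn1 lost its call without the library numbered 1 or 2 of either group (adjusted p = 0.0706 to 0.127), and without the variance trend (adjusted p = 0.0704). Neither gene was called without the filter on low genes. Mrtfa and Mrtfb, the coactivators, named here after their values were seen, differed by -0.07 and 0.21 (adjusted p = 0.651 and 0.269).

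Further known SRF/MRTF targets went both ways. Of 24, 19 were tested, 4 fell and 2 rose (31.6% called, against the same 13.4%), with a median of -0.02. Mical2, an enzyme that oxidises actin (chromosome 7), had 107.3, 111.2 and 95.3 FPKM in GFP-Rgnef libraries, against 205.9, 190.0 and 200.8 FPKM in knockout libraries. It fell by 0.92 on the log2 scale (limma adjusted p = 0.000353), and by 0.67 after subtraction of the chromosome median (adjusted p = 0.0011), with 0.733% of chromosome 7 genes lower. Zyx, the focal adhesion protein zyxin (chromosome 6), had 88.0, 85.5 and 77.3 FPKM with GFP-Rgnef, against 117.2, 115.7 and 106.3 FPKM in the knockout (-0.43, adjusted p = 0.00833). Thbs1, thrombospondin 1 (chromosome 2), had 4.10, 4.93 and 3.91 FPKM with GFP-Rgnef, against 8.72, 9.75 and 6.75 FPKM in the knockout (-0.82, adjusted p = 0.00835). Ccn2, named after its values were seen, was the fourth to fall (-0.36, adjusted p = 0.0453), and it was not called after subtraction of the chromosome median (-0.37, adjusted p = 0.0518).

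The 2 SRF/MRTF targets that rose were Mylk and Ccn1. Mylk, the kinase that phosphorylates myosin light chains (chromosome 16), had 3.14, 6.05 and 3.29 FPKM in GFP-Rgnef libraries, against 1.28, 0.464 and 0.964 FPKM in knockout libraries (1.42, SE 0.24, limma adjusted p = 0.00797). Ccn1, a secreted matricellular protein and a relative of Ccn2 (chromosome 3), had 25.8, 22.8 and 24.4 FPKM with GFP-Rgnef, against 15.9, 17.7 and 19.0 FPKM in the knockout (0.45, adjusted p = 0.0144). For both genes the groups did not overlap. Ccn1 was not called without the GFP-Rgnef library numbered 1 (adjusted p = 0.0595) or the knockout library numbered 2 (adjusted p = 0.0561).

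Of 44 other actin-binding genes, 38 were tested and 6 fell (15.8%, against 8.04% of all genes). By limma or by voom 0 were called higher (5.34% of all genes by limma). At an unadjusted limma p below 0.05, 7 were higher and 7 lower, and the share of all genes at that threshold was not counted. The median difference of the 38 was 0.02. Of the 6, 4 lie on chromosomes 7 and 9 (Rdx, Cttn, Tmod3 and Twf2), where 5 were tested and 32.2% of all genes fell. Elsewhere 2 of 33 fell (6.06%), Svil among them, close to the 4.53% of all genes there. Tmod3, Twf2 and Svil are named after their values were seen. Rdx, radixin, which ties actin to the membrane (chromosome 9), had 71.9, 74.1 and 76.5 FPKM with GFP-Rgnef, against 103.9, 113.7 and 108.4 FPKM in the knockout (-0.54, limma adjusted p = 0.00207), and -0.25 after subtraction of the chromosome median (adjusted p = 0.048). Cttn, cortactin, an activator of branched filaments (chromosome 7), had 273.4, 265.5 and 269.8 FPKM with GFP-Rgnef, against 334.0, 319.8 and 333.4 FPKM in the knockout (-0.29, adjusted p = 0.0124), and -0.04 after that subtraction (adjusted p = 0.771). Its call was lost without the GFP-Rgnef library numbered 2 (adjusted p = 0.0744). Without that library or the knockout library numbered 2, 3 of the 38 tested genes were called.

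**Figure D5:**
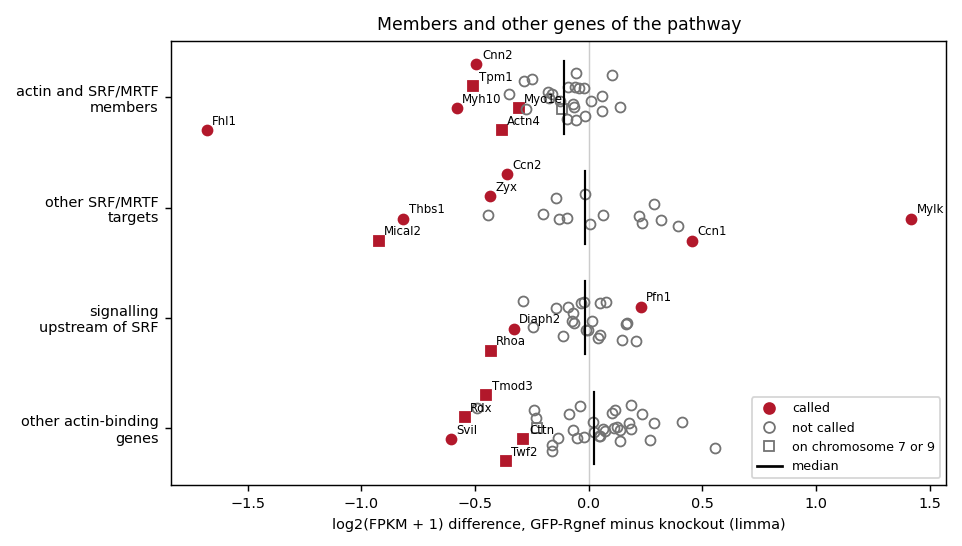
Differences between GFP-Rgnef and knockout libraries on the log2(FPKM + 1) scale (x axis) for the tested genes among the 38 and for 3 further lists (rows), with called genes filled and named, genes on chromosomes 7 and 9 as squares, and the median of each row, over all its tested genes, as a line. A single called gene of the lowest row is not drawn. Medians lie at -0.11, -0.02, -0.02 and 0.02, and genes called higher appear among the other SRF/MRTF targets (Mylk, Ccn1) and the upstream signalling genes (Pfn1).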

How the data were processed

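The authors deposited 1 table of FPKM values for 35275 Ensembl identifiers in 6 libraries, made with poly-T selection and a NEBNext Ultra kit, per the labels' protocols. CASAVA 1.8, TopHat2 2.0.9, DESeq2 and the build mm10 were named, per the submitters' processing notes. The step each tool was used for, the gene annotation and the use of strand are not given in the sources used here. GENCODE M 21 (GRCm38, the assembly of mm10) gave symbols for 34490 identifiers. Steps between low FPKM values gave the depth and whole reads (within 0.02 of a whole number), which summed to 99.8% of depth in each library. For low genes the reads are the smallest counts that match. The gene lengths used by the authors could differ from annotated exon lengths (for Actb 956 against 2679 bases), which affects levels set between genes. Ratios of FPKM between groups do not depend on length. Through the filter and the 1 added to FPKM, length does affect the differences of low genes.

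Groups were compared on log2(FPKM + 1) in R 4.3.3 by limma 3.58.1 (trended variance), for genes with a mean of at least 0.5 FPKM, Benjamini-Hochberg adjusted over all genes tested. Tables and plots used Python 3.11.15, pandas 2.3.3, numpy 2.4.6 and matplotlib 3.10.9. The method was also run on simulated data. These held no shift of whole chromosomes and no part shared by the libraries numbered 3, so that run does not cover either. The 38 genes and the 3 further lists were chosen with earlier results of these data known. Values per library were given for called genes, the most abundant gene of each role and genes under the filter. From each further list the 3 called genes with the smallest p in each direction were named. Alternatives covered the pseudocount, filter, scaling, variance model, voom on recovered reads, chromosome medians, the replicate number as a block, and libraries left out. All columns were used. A called gene of the list of other actin-binding genes enters the counts but is not reported here.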

Additional observations from a re-analysis of the deposited data

How the results depend on the processing

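Fhl1, Tpm1 and Actn4 kept their calls without any 1 library. After each chromosome's median deviation was subtracted in each library, 389 genes were called higher and 496 lower over all chromosomes (614 and 925 without that step). Tpm1, Actn4 and Myo1e were no longer called, and Filip1l was. In that fit 0 of the upstream signalling genes and 3 of the other actin-binding genes were called, and Actg1 (-0.056) and Tagln (0.174) changed sign. Without the filter on low genes 394 genes were called higher and 725 lower, and 1 upstream signalling gene was called. With libraries 1 and 2 of each group alone 1059 of 11451 genes were called higher. In that fit 12 other actin-binding genes were called in either direction, a count given without the share over all genes. Of the 38 genes Actn4, Cnn2, Fhl1, Filip1l, Myl6, Myo1e and Tpm1 fell there, and Myh10 was not called. Myl12a (0.02), Fhl3 (0.05), Wdr1 (0.014) and Coro1c (0.026) changed sign. Under TPM scaling Actg1 was -0.012. With 1 library left out in turn, 198 to 580 genes were called higher and 458 to 848 lower, 3 to 6 of the 38 genes fell (1 to 3 outside chromosomes 7 and 9), and 1 to 3 upstream signalling genes, 4 to 7 further SRF/MRTF targets and 3 to 8 other actin-binding genes were called. Differences that crossed 0 when 1 library was left out, in none of which the gene was called, were those of Actg1 (-0.053 to 0.088), Cald1 (-0.182 to 0.097), Pdlim7 (-0.091 to 0.024), Tagln (-0.348 to 0.002), Tagln2 (-0.113 to 0.012), Myh9 (-0.206 to 0.05), Lima1 (-0.013 to 0.136), Coro1c (-0.088 to 0.073), Fhl2 (-0.27 to 0.063), Fhl3 (-0.207 to 0.063) and Cap1 (-0.077 to 0.006). Deviations of same-numbered libraries from their group means correlated at 0.32, -0.02 and 0.55, and not every library correlated best with its own number. The main fit did not take the numbers to pair the libraries. The libraries numbered 3 correlated at 0.55 with each other, and at -0.523 to -0.2 with the libraries numbered 1 and 2 of the other group. What they share stayed in the spread behind the main p-values. With the replicate number as a block, 1253 genes were called higher and 1517 lower, and 10 of the 38 genes fell (7 outside chromosomes 7 and 9), adding Actn1, Cnn3, Filip1l and Myl6. Under the block 5 upstream signalling genes, 11 further SRF/MRTF targets and 15 other actin-binding genes were called. The cause of these changes was not tested. Counting error limits low tested genes such as Tagln (9 to 33 reads per library) and Myh10 (22 to 85 reads), and the 8 genes under the filter.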

Other observations

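The libraries numbered 3 stood apart in both groups, for the actin and SRF/MRTF genes about as often as for all genes. Of the 30 tested genes, 7 were highest in the library numbered 3 of each group (Tagln, Cald1, Fhl2, Fhl3, Pdlim5, Pdlim7 and Lima1; 23.3%), and 8 were lowest there (Actn1, Flna, Tagln2, Cnn3, Myh9, Myl6, Pdlim1 and Coro1c; 26.7%). Over all 11500 tested genes, the libraries numbered 3 were highest in both groups for 26.0% and lowest in both for 22.2%. Cald1 had 509.8 FPKM in the GFP-Rgnef library numbered 3 and 549.0 FPKM in the knockout library numbered 3, and 388.7 to 405.1 FPKM in the other 4. The ratio of Myh9 to Myh10 within a library was 1343, 907 and 787 in GFP-Rgnef libraries, against 593, 475 and 278 in knockout libraries, so that the library numbered 3 was lowest in each group. What the libraries numbered 3 share was not tested.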
